A study of Homo sapiens with 6 samples.

Results

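The colony-stimulating factors CSF1, CSF2 and CSF3 and the interleukin 1 genes IL1A, IL1B, IL1RN, IL1R1 and IL1RAP were examined in HeyA8-MDR, a multidrug-resistant line derived from the human ovarian cancer line HeyA8. The 8 genes were grouped by their known roles and chosen from earlier results on these same arrays, in which siGRAMD1B was compared with siControl, so their values in that comparison are a description, and a count of calls among their probes is printed beside that of the whole array with nothing read from it. All probes annotated with 1 of these symbols were taken, which gave 15 of the 47231 probes on the array. These covered 7 of the 8 genes. CSF2 has no probe with its symbol in the annotation used here and was not analysed.

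The study treated HeyA8-MDR cells with a control siRNA (siControl, arrays numbered 1, 2 and 4) or with an siRNA against GRAMD1B (siGRAMD1B, arrays 2, 3 and 4), a gene for a sterol transfer protein of the endoplasmic reticulum. Total RNA of each of the 6 samples was labelled with biotin and hybridised to an Illumina bead array. Dose and time of treatment are not given in the sources used here, and neither is the origin of the replicates, so each p-value reflects the spread among these samples alone, which may be technical. In RNA from whole cultures, fewer cells of a kind and less RNA per cell cannot be told apart. Both groups carry the drug-resistant background and an siRNA, and no untreated cells or drug-sensitive parent line are compared.

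Colony-stimulating factors are secreted proteins named for the blood cell colonies they support. CSF1 acts on macrophages, CSF2 on granulocytes and macrophages, and CSF3 on neutrophils. IL1A and IL1B are related cytokines that signal through the receptor IL1R1 together with its accessory protein IL1RAP, while the antagonist encoded by IL1RN occupies the receptor without signalling. The signal passes through MYD88 and IRAK kinases to NF-kB, and IL1 is a well-known inducer of CSF3 in cells outside the blood. Tumour cells, ovarian cancer cells among them, can make several of these cytokines.

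Among the genes with a probe, CSF3 showed the only large difference. Its level was about 2.77-fold to 2.81-fold higher in siGRAMD1B at each of its 2 bright probes. IL1A and IL1B had bright probes in both groups and differed little, IL1A by 0.28 upward and IL1B by 0.17 downward on the log2 scale. CSF1 was dim and 0.19 to 0.28 higher at its 3 probes, IL1RAP was level at 1 probe and lower by 0.23 and 0.25 at the other two, and the probes of IL1RN and IL1R1 lay in the range of the dimmest probes.

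Values are log2 intensities after background correction and quantile normalization between arrays, and each difference is siGRAMD1B minus siControl. The scale contains an offset that understates changes of dim probes, and the brightness of different probes does not rank their transcripts. Probes with a mean above 6.16, the 40th percentile of all probes, entered the fit. Of the 15 probes 9 passed, from 5 genes, and 6 did not, among them every probe of IL1RN and of IL1R1. Of all 28338 probes in the fit, 7.09% differed at an adjusted p under 0.05 (limma), against 2 of the 9 member probes, both of CSF3. In 24.1% of all probes in the fit the arrays of the groups did not overlap, against 7 of these 9. Since the genes were chosen with this comparison known, nothing is read from either count.

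**Figure D1:**
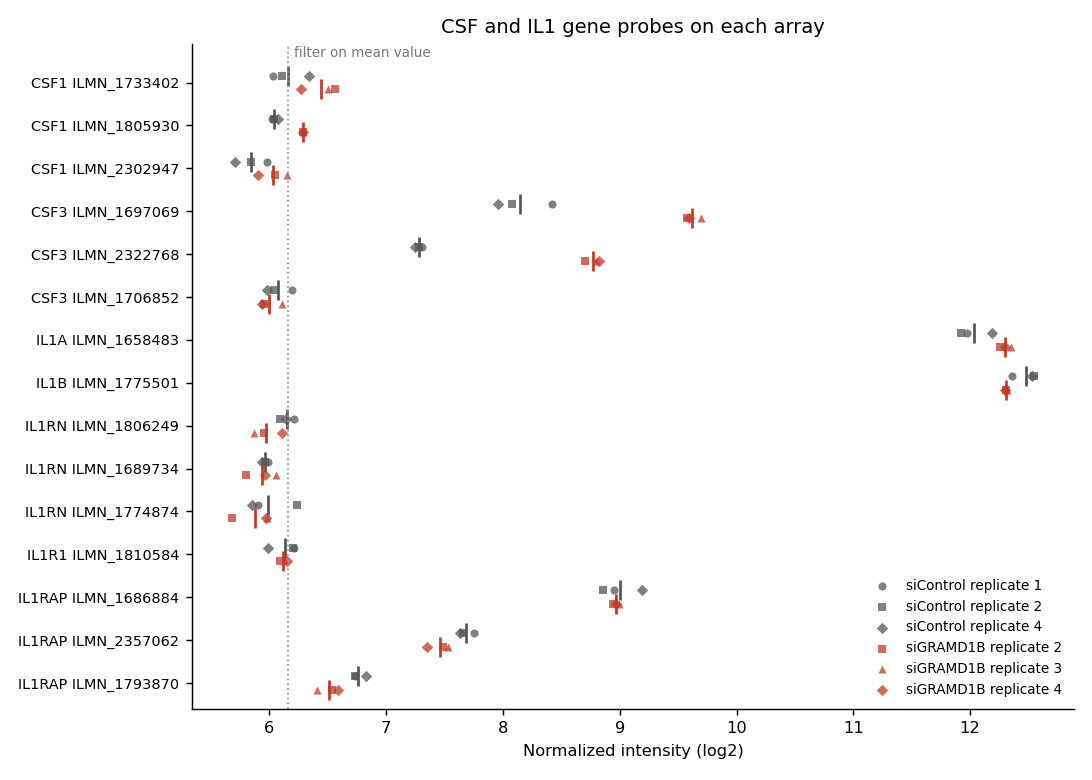
Normalized log2 intensity (horizontal axis) of the 15 probes of the 7 genes on each of the 6 arrays. Symbols are single arrays, vertical ticks are group means, and the dotted line is the filter at 6.16. Only the CSF3 probes ILMN_1697069 and ILMN_2322768 show a wide gap between grey siControl and red siGRAMD1B symbols.

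CSF3 encodes granulocyte colony-stimulating factor. At its brightest probe, ILMN_1697069, the siControl arrays 1, 2 and 4 gave 8.42, 8.08 and 7.96, and the siGRAMD1B arrays 2, 3 and 4 gave 9.58, 9.70 and 9.59. The groups were far apart, and siControl was the more variable of them (8.15 ± 0.24 against 9.62 ± 0.06, SD, n = 3). The difference was 1.47 ± 0.12 (SE of the fit), or 2.77-fold.

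At the second CSF3 probe, ILMN_2322768, the arrays gave 7.31, 7.28 and 7.25 in siControl and 8.70, 8.80 and 8.82 in siGRAMD1B. Every siGRAMD1B array again lay far above every siControl array, with means of 7.28 ± 0.03 for siControl and 8.77 ± 0.07 for siGRAMD1B (SD, n = 3), and the difference was 1.49 ± 0.10 (SE), or 2.81-fold. Both probes are annotated to the transcript NM_000759, and their differences lay 0.02 apart. The deposited intensities, which are linear and neither normalized nor background-corrected, showed the same separation. They ran from 309.4 to 330.1 in siControl and from 702.5 to 978.1 in siGRAMD1B at the first probe. At the second they ran from 170.8 to 203.8 and from 429.5 to 551.1.

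The remaining CSF3 probe, ILMN_1706852, is annotated to the transcript NM_172220 and stayed below the filter. Arrays 1, 2 and 4 of siControl gave 6.19, 6.04 and 5.98, and arrays 2, 3 and 4 of siGRAMD1B gave 5.95, 6.11 and 5.94. The groups overlapped and the difference was -0.07. Against the brightest CSF3 probe its gap was 1.98 to 2.23 in siControl and 3.59 to 3.65 in siGRAMD1B. The wider gap restates the difference of the brightest probe. The higher CSF3 signal was read by the probes annotated to NM_000759. At the brightness of ILMN_1706852 no change could be detected, and whether the transcripts differ in their response was not tested.

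CSF1, the macrophage factor, was read by 3 dim probes that all differed in the same direction. At ILMN_1733402 the siControl arrays gave 6.03, 6.11 and 6.34 and the siGRAMD1B arrays 6.56, 6.50 and 6.27. The highest siControl array, number 4, lay above the lowest siGRAMD1B array, also number 4, and the difference was 0.28 ± 0.11 (SE). The siControl mean of this probe, 6.16, lay at the filter, against 6.44 in siGRAMD1B. ILMN_1805930 had a mean of 6.17, just above the filter, which it passed only through siGRAMD1B, since its siControl mean of 6.04 lay below. Its siControl arrays gave 6.02, 6.04 and 6.07 and its siGRAMD1B arrays 6.29, 6.29 and 6.29, a difference of 0.25 ± 0.09 (SE). The groups did not overlap, which the filter favours in a probe that enters through its higher group. The third probe, ILMN_2302947, was below the filter, overlapped between groups and differed by 0.19.

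The interleukin 1 ligands were bright in every array. IL1A, which also acts inside the cell and at its surface, gave 11.97, 11.92 and 12.19 in siControl and 12.26, 12.35 and 12.30 in siGRAMD1B at its only probe, ILMN_1658483. All siGRAMD1B arrays lay above all siControl arrays, with siControl array 4 close below the lowest of them. The means were 12.03 ± 0.14 and 12.30 ± 0.05 (SD, n = 3) and the difference was 0.28 ± 0.10 (SE), or 1.21-fold. With each array left out in turn it ran from 0.22 to 0.36.

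IL1B, secreted after its precursor is cleaved by caspase 1, gave 12.36, 12.55 and 12.53 in siControl and 12.31, 12.32 and 12.30 in siGRAMD1B at its only probe, ILMN_1775501. The siGRAMD1B arrays were the lower ones and lay within 0.02 of each other, and siControl array 1 was close above them. The means were 12.48 ± 0.10 and 12.31 ± 0.01 (SD, n = 3), with a difference of -0.17 ± 0.10 (SE).

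Within each array the IL1A signal was set against the IL1B signal, a comparison chosen after the values were seen. The log2 gap of IL1A to IL1B was -0.39, -0.63 and -0.34 in siControl arrays 1, 2 and 4. In siGRAMD1B arrays 2, 3 and 4 it was -0.06, 0.03 and 0.01. The group means of the gap lay 0.45 apart, which restates the IL1A and IL1B differences above on a scale free of each array's own brightness and adds no support to them.

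IL1A and IL1B are next to each other on chromosome 2, with 0 protein-coding genes between them in RefSeq (GRCh38.p14), and 6 members of the IL1 family lie between IL1B and IL1RN. The windows from 250 bases before to 50 after the annotated start are shown for IL1A and IL1B. These neighbours had bright signals that differed in opposite directions. Neither difference passed at an adjusted p under 0.05 (limma), and whether the windows bear on them was not tested. The IL1A window is chr2:112784444-112784743 and the IL1B window chr2:112836730-112837029, both on the minus strand of GRCh38.p14 and taken from RefSeq. Capitals mark matches to TGANTCA, an AP-1 motif, or to the TATA box letters TATAAA. Each sequence runs 5′ to 3′.
IL1A: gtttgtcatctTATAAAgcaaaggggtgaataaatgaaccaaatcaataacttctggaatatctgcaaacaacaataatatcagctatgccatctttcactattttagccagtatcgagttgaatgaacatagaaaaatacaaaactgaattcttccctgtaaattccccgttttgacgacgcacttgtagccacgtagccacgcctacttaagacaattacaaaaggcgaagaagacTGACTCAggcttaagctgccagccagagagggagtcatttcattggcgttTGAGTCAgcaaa
IL1B: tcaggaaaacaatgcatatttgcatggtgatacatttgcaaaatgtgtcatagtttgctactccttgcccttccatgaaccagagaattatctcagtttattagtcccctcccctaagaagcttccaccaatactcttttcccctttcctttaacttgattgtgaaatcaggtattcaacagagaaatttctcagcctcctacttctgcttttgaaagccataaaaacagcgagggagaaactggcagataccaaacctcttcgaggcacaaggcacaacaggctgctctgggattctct
The IL1A window held 2 AP-1 matches and 1 TATA box match, the latter 239 bases upstream of the start. The other annotated IL1A window overlaps this one and held the same AP-1 matches but no TATA box match. The AP-1 matches began at -12 and 39 from the start of the window shown, and at -105 and -55 from that of the other. The IL1B window held neither, nor a match to an NF-kB motif or to GATTCCA, the core of an element described in CSF promoters. All were searched on both strands. Of 35116 promoter windows of this length, 11.5% held the TATA box letters, 7.71% the AP-1 motif, 25.6% the NF-kB motif and 3.33% GATTCCA. A missing match says only that these exact letters are not in this window, and a match does not show a working site. The IL1B window held CATAAA, which differs from the TATA box letters in its first letter only.

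Windows were given for 6 of the 8 genes, CSF1 and CSF3 not among them. The 3 IL1RN windows held 1 AP-1 match and 2 TATA box matches, which overlap each other on opposite strands. In the CSF2 window GATTCCA began 99 bases and the NF-kB match 85 bases upstream of the start. The 4 IL1R1 windows held 2 TATA box matches and 1 NF-kB match, and the IL1RAP window held 2 NF-kB matches.

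The receptor side was uneven. IL1R1, the signalling receptor, was read by ILMN_1810584 at 6.21, 6.20 and 5.99 in siControl and 6.09, 6.13 and 6.15 in siGRAMD1B. Both groups overlapped below the filter, with a difference of -0.01, so no change of this gene could be detected at this brightness. IL1RN, the antagonist, had 3 probes, all below the filter and overlapping, with differences of -0.17, -0.02 and -0.12. A probe in this range does not show that a transcript is absent.

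IL1RAP, the accessory chain, had 3 probes in the fit. ILMN_1686884, annotated to NM_002182, the transcript of the membrane-bound form, gave 8.95, 8.86 and 9.19 in siControl and 8.94, 8.99 and 8.97 in siGRAMD1B. These groups overlapped and the difference was -0.03 ± 0.11 (SE). Its sign turned over the alternatives, from -0.10 without siControl replicate 2 to 0.06 without siControl replicate 4.

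The other two IL1RAP probes are annotated to NM_134470, which encodes a shorter, secreted form. ILMN_2357062 gave 7.75, 7.66 and 7.63 in siControl and 7.49, 7.53 and 7.35 in siGRAMD1B, a difference of -0.23 ± 0.10 (SE). ILMN_1793870 gave 6.73, 6.73 and 6.83 against 6.54, 6.41 and 6.59, a difference of -0.25 ± 0.10 (SE). At both, every siGRAMD1B array lay below every siControl array. The gap of ILMN_1686884 to ILMN_2357062 within an array overlapped between the groups, at 1.20 to 1.56 in siControl against 1.46 to 1.62 in siGRAMD1B. Its gap to ILMN_1793870 did not, at 2.13 to 2.36 against 2.38 to 2.59. Whether the probes of the forms differ in their response was not tested.

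**Figure D2:**
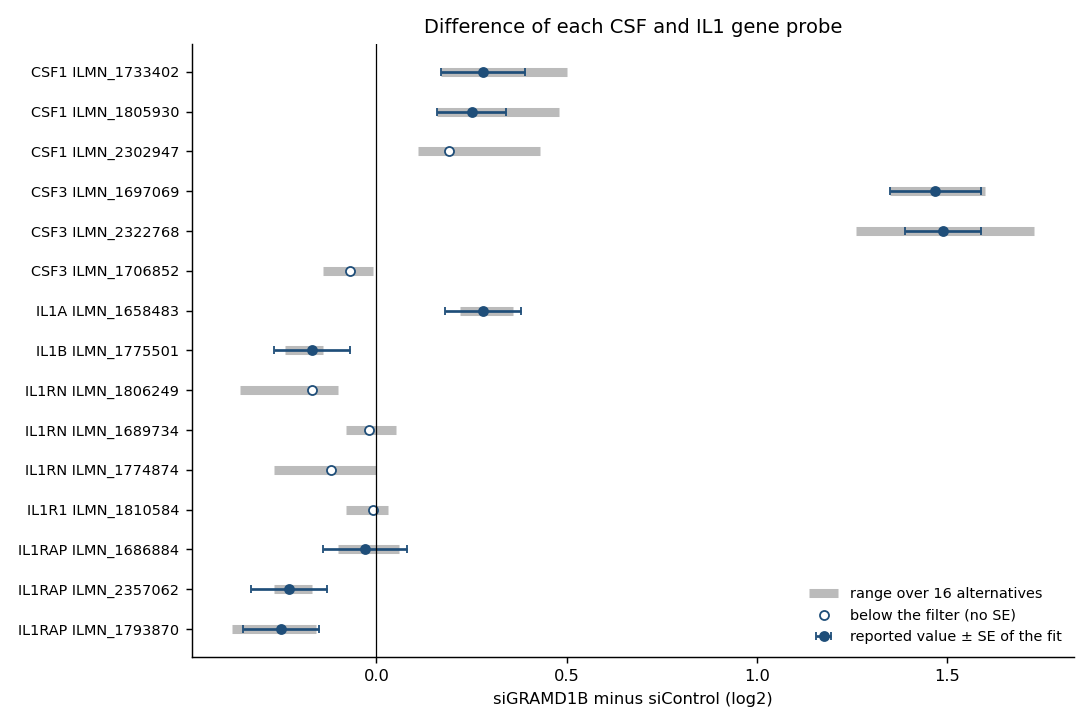
Log2 difference of siGRAMD1B minus siControl (horizontal axis) for each of the 15 probes. Filled points carry the SE of the fit, open points lay below the filter, and grey bars span 16 alternative settings. The 2 bright CSF3 probes stayed between 1.26 and 1.73 over these settings, and all other values lay between -0.38 and 0.50.

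The genes whose probes had the values most like those of the CSF3 and CSF1 probes were found by the root mean square difference over the 6 arrays, after each probe's siControl mean was subtracted. For CSF3 the closest was CD163L1, a scavenger receptor gene, at 0.063, followed by CFAP58 and OGFR, both at 0.14. For CSF1 the closest were ESYT2 at 0.024, TTC8 at 0.034 and YY1P2 at 0.040. Within 0.2 of the CSF3 probe lay 13 of 14256 genes compared, or 0.0912%, and within 0.2 of the CSF1 probe 4006, or 28.1%, a limit chosen after the values were seen. These counts depend on the size of each difference. A probe with a smaller rise than that of the CSF1 probe can lie within 0.2 of it. Only strongly differing probes can lie close to the CSF3 probe.

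Genes around the members were taken in 4 lists of 68 genes, of which 51 had a probe in the fit, represented by the brightest one. Higher were 4 and lower 4, while 43 did not pass, with a median difference of 0.00. Over all 14261 genes in the fit, 5.71% were higher and 3.72% lower, with a median of 0.01. Unless stated otherwise, passing means a limma adjusted p under 0.05 over all probes.

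Of 8 CSF receptors and related ligands, 4 had a probe in the fit, and 0 were higher and 0 lower at an adjusted p under 0.05 (limma, with 0 at an unadjusted p under 0.05). The ordinary test per probe also called 0, with 1 at an unadjusted p under 0.05. The median difference was -0.13. CSF2RA, the ligand-binding chain of the CSF2 receptor, was bright at 12.24 ± 0.16 in siControl and 12.06 ± 0.20 in siGRAMD1B (SD, n = 3). Its 2 probes in the fit differed by -0.18 and -0.15. CSF1R, the CSF1 receptor, was at 6.23 and 6.09, next to the filter, and the probes of CSF3R and CSF2RB were below it. No probe in the fit therefore read the receptor for the one factor with a large difference.

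Among 24 other IL1 family and processing genes, 15 were in the fit, and 1 was higher, 0 were lower and 14 did not pass (median 0.00). NLRP3, the sensor of an inflammasome that activates caspase 1, rose by 0.50 ± 0.10 (SE), from 8.09 ± 0.11 to 8.59 ± 0.09 (SD, n = 3, limma adjusted p = 0.0053). Its other probes differed by 0.31 and 0.11 and did not pass. CASP1, which encodes caspase 1, differed by 0.17 and 0.20 at 2 probes without passing. IL18, a ligand of the same family, was at 13.76 in both groups, with a difference of 0.01. Of the 6 genes between IL1B and IL1RN, 5 (IL37, IL36G, IL36A, IL36RN and IL1F10) had no probe above the filter, and the brightest IL36B probe was at 6.35 in siControl and differed by -0.05.

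In the relay from the IL1 receptor, 2 of 18 genes were higher, 1 was lower and 15 did not pass (median 0.01). IRAK2, an IRAK family member of the receptor complex, rose by 0.75 ± 0.11 (SE), from 9.44 ± 0.21 to 10.19 ± 0.02 (SD, n = 3, limma adjusted p = 3.26e-04). Its partner IRAK1 rose by 0.41 (limma adjusted p = 0.034), and the adaptor MYD88 fell by 0.36 (limma adjusted p = 0.027). TRAF6, the ubiquitin ligase that follows them, differed by 0.04 and did not pass. IRAK4 had no probe with its symbol. The call of IRAK1 was lost when replicate 1 (adjusted p = 0.13) or 2 (0.10) of siControl, or replicate 2 (0.17) or 3 (0.095) of siGRAMD1B, was left out. MYD88 kept its call only without siControl replicate 2 (0.041) among the 6 fits that leave out 1 array, with 0.061 to 0.12 in the others.

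Factors for the decay and stability of mRNAs with AU-rich elements or stem-loops were listed because CSF and IL1 transcripts are known to be controlled in this way. Here 1 of 14 genes was higher, 3 were lower and 10 did not pass (median 0.01). ZC3H12A, an endonuclease also called Regnase-1 that cuts inflammatory mRNAs, rose by 0.58 ± 0.11 (SE), from 7.70 ± 0.13 to 8.28 ± 0.11 (SD, n = 3, limma adjusted p = 0.0020). ZFP36, or tristetraprolin, which directs mRNAs with AU-rich elements to decay, fell by 0.41 (limma adjusted p = 0.019). CELF1 fell by 0.40 and 0.43 at its probes (limma adjusted p = 0.020 and 0.024), and RC3H2, a relative of Roquin, fell by 0.42 (limma adjusted p = 0.047). The stabilising factor ELAVL1 differed by 0.15 and did not pass.

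Calls of the genes that fell depended on which arrays were in the fit. Among the 6 fits that leave out 1 array, ZFP36 passed when replicate 4 of siControl (adjusted p = 0.010) or of siGRAMD1B (0.042) was left out, with 0.066 to 0.084 in the others. CELF1 passed only without siControl replicate 1 (0.023), with 0.054 to 0.074 in the others. RC3H2 passed when replicate 2 of siControl (0.016) or 3 of siGRAMD1B (0.040) was left out, with 0.10 to 0.20 in the others. IRAK2, ZC3H12A and NLRP3 passed in all 6.

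**Figure D3:**
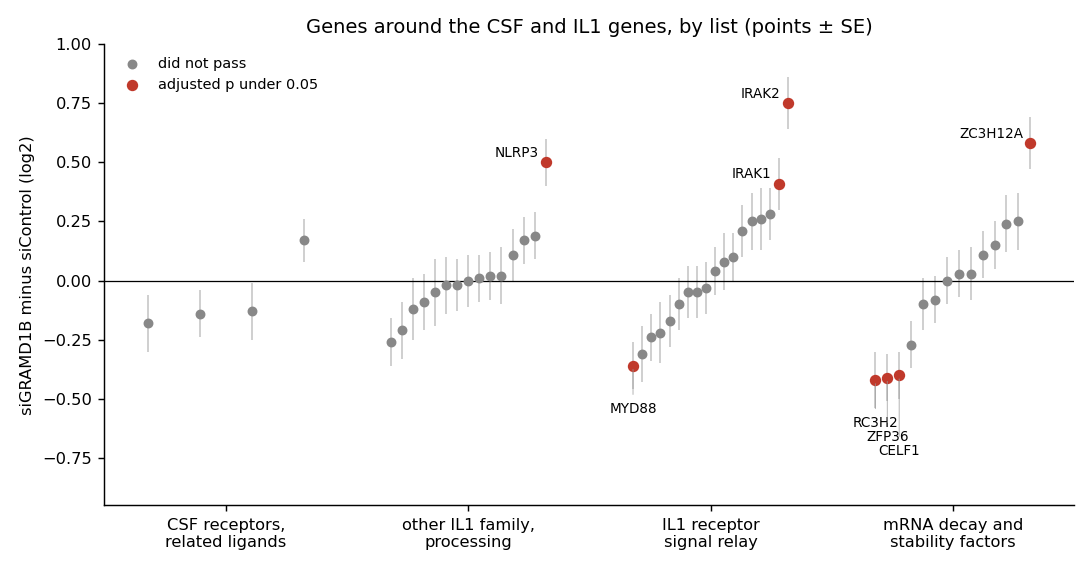
Log2 difference of siGRAMD1B minus siControl (vertical axis) with the SE of the fit for the 51 genes of the 4 lists, ordered by value within each list. Red points passed at an adjusted p under 0.05: 4 lie above 0 and 4 below, and no gene of the first list passed.

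The siRNA target and cell identity were checked on the same arrays. GRAMD1B (1 probe, ILMN_3237376) was 6.42, 6.41 and 6.57 in siControl and 6.26, 6.23 and 6.17 in siGRAMD1B, lower in all 3. Its difference of -0.25 ± 0.10 (SE) did not pass over all probes (limma adjusted p = 0.15). The exact 2-sided permutation p was 0.10, the smallest that 3 arrays against 3 allow. The GRAMD1B values lay next to the filter, where the offset understates changes, so the size of the fall cannot be read from them. Of 6 epithelial markers 4 (KRT8, KRT18, PAX8 and EPCAM) were above the filter, CDH1 and MUC16 were not, and none of the 4 passed the test. In siControl KRT8 was at 11.10, PAX8 at 10.25 and KRT18 at 8.20, while EPCAM at 6.42 was next to the filter. Of 3 mesenchymal markers, all above the filter, CDH2 fell by 0.38 from 12.69 (limma adjusted p = 0.023), while VIM at 14.57 and FN1 at 6.68 in siControl differed by 0.12 and 0.05 without passing. ABCB1, the drug efflux pump of multidrug-resistant lines, rose by 0.59 from 11.53 (limma adjusted p = 0.023). Its groups overlapped, with siControl array 4 at 11.87 and siGRAMD1B array 4 at 11.84. Of 3 endothelial markers VWF rose by 0.38 (limma adjusted p = 0.033) from 6.12, a level below the filter. VWF passed the filter only through its higher group, siGRAMD1B, which favours a call. CDH5 and PECAM1 did not pass. PECAM1 was dim, at 6.20 in siControl, but CDH5 was bright, at 9.71, above KRT18 and EPCAM. Of 8 leukocyte markers, 7 had a probe and 6 were above the filter. The summed log2 values of the 7 ran from 49.19 to 49.63 in siControl and from 49.22 to 49.99 in siGRAMD1B. Only CD68 was bright, at 11.41 in siControl. CD14 (6.66 in siControl), ITGAM (6.53), LYZ (6.44) and CSF1R (6.23) were dim. The pan-leukocyte marker PTPRC (6.19 and 6.17) was next to the filter and CD3E below it. CD68, a lysosomal protein also made by other cells, rose by 0.37 (limma adjusted p = 0.023). The part of these marker differences in the results was not tested.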

How the data were processed

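The authors deposited an intensity table on a linear scale, for which the submitters' processing notes name BeadStudio with no version. The lowest value per array ran from 71.7 to 89.8 and the median from 102.7 to 128.8. Its header stands 1 field to the right of the values, which were assigned by matching each array to the second table (Spearman's rho 1.00 across probes with its own column, at most 0.854 with another). That second table holds the deposited log2 values, normalized between arrays by a method not given in the sources used here. Sample columns left unused numbered 0.

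The intensities were corrected with normexp (offset 50), quantile-normalized and log2-transformed in limma 3.58.1 (R 4.3.3). The 28338 probes above the 40th percentile were tested across all probes with lmFit and eBayes (2-sided, Benjamini-Hochberg), after a check on simulated data. Symbols came from the platform annotation (30113 probes with 1 symbol, 8 with several, 17110 with none). The members and lists were chosen with earlier results of these data known. Every member probe was reported. From each list all called genes, up to 4 by smallest p, were named, with further genes for context chosen after their values were seen. Likeness was computed for the 2 members with the largest difference at their brightest probe. Alternatives covered background, normalization, filter, variance model, pairing and each array left out. The number of arrays limits precision.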

Additional observations from a re-analysis of the deposited data

How the results depend on the processing

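Each alternative changed 1 choice, except that the trend and robust options of eBayes were set together and that the deposited normalized values replaced both background correction and normalization. Of the 15 member probes, the 2 bright CSF3 probes kept their sign in all 16 alternatives, between 1.35 and 1.60 (ILMN_1697069) and between 1.26 and 1.73 (ILMN_2322768), and so did CSF1, IL1A, IL1B and the IL1RAP probes for the shorter form. Member probes called, a description since the members were chosen on this comparison, numbered 2 or 3. The third was IL1A in 1 of 16 alternatives, without siControl replicate 4. With the ordinary test per probe, 1 of the 2 was a CSF3 probe and the other the CSF1 probe ILMN_1805930, which entered the fit through its higher group.

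The 2010 probes called over the array became 683 with an offset of 16, 1022 with median centring and 256 with the ordinary test, and 1168 to 2138 with each array left out. The 8 list genes called became 2, 3 and 0 in those settings, and 3 to 5 with each array left out. The 0 stood beside 12 of 51 genes at an unadjusted p under 0.05. GRAMD1B kept its sign, from -0.43 to -0.16, and did not pass in any alternative where it was in the fit.

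The groups share only the numbers 2 and 4. The deviations of same-numbered arrays correlated at 0.0245 and -0.154 across probes, so the numbers were not taken as pairs. With the replicate block 987 probes and 4 list genes were called, with 1 residual degree of freedom per probe before moderation. Only the arrays with shared numbers inform the difference in that fit. Dim probes limit what could be seen of CSF1, IL1R1 and IL1RN.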
